A study of Mus musculus with 2 samples.

Results

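The naive-state transcription factors of mouse embryonic stem (ES) cells were followed through both RNA sequencing libraries of Dgcr8 knockout cells. The set consists of 9 genes, Klf2, Klf4, Klf5, Esrrb, Tbx3, Tfcp2l1, Nr0b1, Nr5a2 and Prdm14. They were taken by symbol, through the Ensembl identifiers of GENCODE release M21, from the 43629 genes of the count tables, and all 9 had a row in both. The study made new Dgcr8 knockout ES cells with a paired CRISPR/Cas9 approach. Its samples form 1 group of 2 libraries, replicate A and replicate B, both labelled as Dgcr8 knockout, of a 129/Ola background, derived from the blastocyst and at passage 7. The sample titles also carry the tags KO2 and d5, whose meaning the labels do not give. No wild-type library was analysed here, so levels describe the knockout cells and no change can be assigned to the genotype. The labels give neither the number of clones nor whether A and B were separate cultures, and the spread between them may be technical.

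ES cells in the naive state resemble the cells of the preimplantation epiblast. Besides the core factors Oct4, Sox2 and Nanog, they carry a layer of supporting transcription factors that respond to LIF through STAT3 and to Wnt through beta-catenin, and that are switched off as cells move to the formative and primed states. Klf4 and Tfcp2l1 are induced by LIF and STAT3. Esrrb and, in part, Klf2, Nr0b1 and Tfcp2l1 are held down by the repressor Tcf7l1 and released by Wnt signalling. Dgcr8 is the RNA-binding partner of Drosha in the complex that cuts primary microRNA transcripts. ES cells without it lack canonical microRNAs and are known to silence the pluripotency program poorly when they are made to differentiate.

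Replicate A held 27872396 counts and replicate B 30327146. Levels are in RPKM, counts per 1000000 of the library total and per kilobase of all annotated exon bases of the gene, so that genes of different length can be set side by side. CPM is the same without the division by length. Values with ± give mean and SD of A and B (n = 2). Intervals are exact 95% Poisson limits and cover counting error only. Ratios are those of A over B, computed as differences of log2(TMM-scaled CPM + 0.5), TMM being a scaling for differences in library composition. Dgcr8 itself had 1253 counts in A and 1942 in B. Counts per gene do not show which exons were read, so this value does not check the knockout.

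All 9 factors were expressed in both libraries, at 10 CPM or more. Their counts lay between 563 and 19479 per library. By mean level Klf2 and Esrrb were the highest and Prdm14 and Nr5a2 the lowest, and in A alone Klf5 lay below Prdm14. With the longest transcript as length in place of all exon bases, Klf5 lay above Prdm14 in A too. The median level of the 9 was 43.7 RPKM, or 44.1 in A and 35.0 in B. The median of all 23449 genes with a count and a length was 1.31 RPKM, and 13320 of those genes reached 1 CPM in both libraries. Counts of the factors differed between A and B by more than counting error in 9 of 9 cases. This is read against 76.8% of all 14583 tested genes that did so, and against 83.0% of genes with at least 10 CPM in each library.

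**Figure D1:**
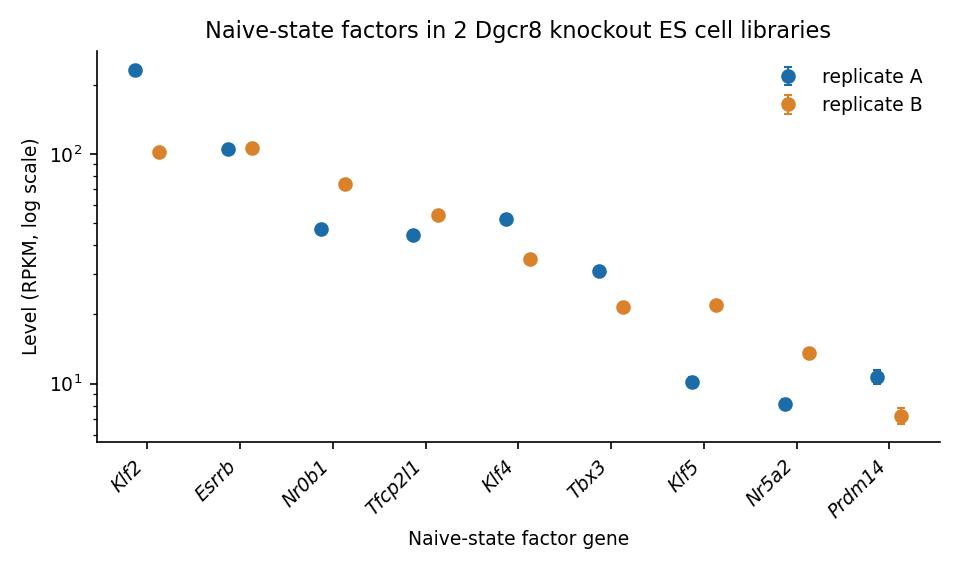
Level of each naive-state factor (vertical axis, RPKM on a log scale) in replicate A (blue) and replicate B (orange), genes in order of mean level, bars giving the 95% Poisson interval of the count. Klf2 stood at 231 RPKM in A and 102 in B, whereas Esrrb stood at 105 and 106 RPKM.

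Promoters of 5 factors are shown because these genes cover the patterns found between the libraries. As measured with TMM scaling, Klf2 and Klf4 were higher in A, Nr0b1 and Tfcp2l1 were higher in B, and Esrrb differed least. After the correction for GC content and length given below, Tfcp2l1 was higher in A, at a log2 ratio of 0.10, and it and Klf4 differed less than Esrrb. The sequences are those of RefSeq on GRCm38.p6, 250 bases before to 50 bases after an annotated start, read on the strand of the gene. Of the 9 factors, 6 had an entry there. Klf5, Tbx3 and Prdm14 had none. Capitals mark matches on either strand to GGGCGG (the GC box bound by Sp factors), CACCC (part of the box bound by Klf factors), TATAAA (the TATA box), AAGGTCA (the half-site bound by Esrrb and Nr5a2) and TTCNNNGAA (the site of STAT factors). Matches of different motifs did not overlap in these windows, and the first 2 GC boxes of Klf4 share 1 base.
Klf2, chr8:72318812-72319111, plus strand: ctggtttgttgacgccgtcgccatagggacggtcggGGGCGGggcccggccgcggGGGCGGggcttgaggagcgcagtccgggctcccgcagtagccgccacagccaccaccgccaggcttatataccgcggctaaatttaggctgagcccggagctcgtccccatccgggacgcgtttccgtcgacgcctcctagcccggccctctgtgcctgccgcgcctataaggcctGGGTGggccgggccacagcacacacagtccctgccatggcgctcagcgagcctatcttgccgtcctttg
Klf4, chr4:55532426-55532725, minus strand: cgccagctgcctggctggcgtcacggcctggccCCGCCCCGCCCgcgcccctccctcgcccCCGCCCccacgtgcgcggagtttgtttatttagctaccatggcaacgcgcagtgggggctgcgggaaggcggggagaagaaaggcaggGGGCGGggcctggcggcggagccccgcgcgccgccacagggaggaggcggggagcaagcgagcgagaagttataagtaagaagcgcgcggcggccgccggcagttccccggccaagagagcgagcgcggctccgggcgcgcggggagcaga
Esrrb, chr12:86360867-86361166, plus strand: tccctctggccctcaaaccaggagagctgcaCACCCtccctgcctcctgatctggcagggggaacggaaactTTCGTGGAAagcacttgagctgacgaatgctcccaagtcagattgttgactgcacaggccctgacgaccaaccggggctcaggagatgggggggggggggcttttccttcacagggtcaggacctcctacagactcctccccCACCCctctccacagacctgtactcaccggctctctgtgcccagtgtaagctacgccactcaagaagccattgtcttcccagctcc
Tfcp2l1, chr1:118627695-118627994, plus strand: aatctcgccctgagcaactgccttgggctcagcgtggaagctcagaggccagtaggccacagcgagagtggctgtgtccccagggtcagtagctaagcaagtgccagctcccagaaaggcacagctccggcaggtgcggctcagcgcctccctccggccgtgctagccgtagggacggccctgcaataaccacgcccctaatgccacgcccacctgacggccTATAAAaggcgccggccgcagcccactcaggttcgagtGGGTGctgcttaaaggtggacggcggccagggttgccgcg
Nr0b1, chrX:86191525-86191824, plus strand: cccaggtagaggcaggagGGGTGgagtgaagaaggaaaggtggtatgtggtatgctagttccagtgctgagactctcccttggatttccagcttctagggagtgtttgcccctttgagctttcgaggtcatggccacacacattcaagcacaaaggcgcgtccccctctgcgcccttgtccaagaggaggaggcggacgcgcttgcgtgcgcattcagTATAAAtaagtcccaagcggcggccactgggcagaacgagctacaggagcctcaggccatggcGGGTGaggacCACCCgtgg

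The windows of Klf2 and Klf4 were the richest in G and C of those of the 6 factors, at 69.3% and 74.3%, against a median of 52.7% over 32851 RefSeq promoter windows. They held 2 and 4 GC boxes, a motif found in 35.7% of all windows, and no TATAAA. Only the exact letters TATAAA were searched for, and the windows of Klf2 and Klf4 both hold TATAAG, which was not counted. The missing match therefore does not show that these windows lack a TATA box. The windows of Tfcp2l1 and Nr0b1 each held 1 TATAAA, which lay 28 and 32 bases before the start and is present in 13.6% of all windows. CACCC occurred 3 times in the Nr0b1 window, 2 times in that of Esrrb and 1 time each in those of Klf2 and Tfcp2l1, and 57.5% of all windows hold it. Among windows not shown, that of Nr5a2 from 136960399 held 1 TATAAA, 181 bases before the start. The Nr5a2 window from 136953581 held 3 CACCC and the Esrrb window from 86421394 held 1. The Esrrb window shown held 1 TTCNNNGAA, present in 8.30% of windows. The half-site AAGGTCA, present in 4.72% of windows, was found in none of the 8 annotated starts of the 6 factors. A match is a description of the letters and does not show binding.

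The Krueppel-like factors Klf2, Klf4 and Klf5 are zinc finger proteins that can stand in for each other in ES cell self-renewal. Klf2 (ENSMUSG00000055148, GRCm38 chromosome 8, 72319033 to 72321656, plus strand) had 11898 counts in A, against 5695 in B. The level was 231 RPKM in A (95% interval 227 to 235) and 102 RPKM in B (99.0 to 104), or 166 ± 91.5. It ranked 195 of 16971 protein-coding genes with a count. Klf2 was 2.13-fold higher in A, a log2 ratio of 1.09 (exact binomial test, Benjamini-Hochberg adjusted p under 1e-300). Corrected for the GC content and length of transcripts, as described below, its log2 ratio was 0.37.

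Klf4 (ENSMUSG00000003032, chromosome 4, 55527143 to 55532466, minus strand), a reprogramming factor, had 4443 counts in A, against 3239 in B. The level was 52.3 RPKM in A (50.8 to 53.8) and 35.0 RPKM in B (33.8 to 36.3), or 43.7 ± 12.2, and it was 1.398-fold higher in A (log2 ratio 0.48, exact binomial test, adjusted p = 1.2e-47). Klf5 (ENSMUSG00000005148, chromosome 14, 99298691 to 99315036, plus strand), which is also needed in the blastocyst, went the other way. It had 1477 counts in A and 3463 in B, levels of 10.2 RPKM (9.68 to 10.7) and 21.96 RPKM (21.2 to 22.7), or 16.1 ± 8.32. Klf5 was 2.29-fold higher in B (log2 ratio -1.19, exact binomial test, adjusted p = 1.2e-170). This was the widest difference among the 9 factors with TMM scaling. With library totals that of Klf2 was wider, at log2 ratios of 1.18 for Klf2 and -1.10 for Klf5.

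The 3 Klf factors therefore made up different mixtures in the libraries. Klf2 held 78.7% of their summed RPKM in A and 64.1% in B, Klf4 held 17.8% in A and 22.1% in B, and Klf5 held 3.47% in A and 13.8% in B. With the longest transcript as length, Klf5 held 5.28% in A and 19.9% in B. The range of Klf5 over both libraries overlapped neither that of Klf2 nor that of Klf4. The sum of the 3 was 294 RPKM in A and 159 RPKM in B. These shares and sums are not corrected for GC content and length. With that correction the log2 ratio was 0.37 for Klf2, 0.18 for Klf4 and -1.12 for Klf5.

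The other 14 Klf genes had a median of 5.91 RPKM and were all lower than Klf2 and Klf4. Of these, 11 reached 1 CPM in both libraries. The highest were Klf10, a factor induced by TGF-beta, at 21.9 ± 3.95 RPKM, and Klf9 at 17.9 ± 6.59 RPKM. Klf10 and Klf9 were each above Klf5 in A and in B, though their ranges over the libraries overlapped that of Klf5. This order depends on the length used. With the longest transcript as length Klf5 stood at 15.8 RPKM in A and 34.1 RPKM in B. On that length Klf9 was below Klf5 in both, at 14.3 and 24.2 RPKM. Klf10 was then above Klf5 in A, at 26.2 RPKM, and just below it in B, at 33.9 RPKM. Klf3, a repressor of the family, stood at 5.69 ± 0.584 RPKM, and Klf12, the nearest protein-coding gene to the right of Klf5, at 0.629 ± 0.453 RPKM. Klf14 had 8 counts in A and 2 in B. Within the summed level of the 17 Klf genes, Klf2, Klf4 and Klf5 together held 76.3% in A and 59.5% in B. As measured, of 11 tested genes among the 14, 1 was higher in A and 8 were higher in B, where 38.4% of all tested genes were called in each direction. With the GC and length correction described below, Klf6 turned to higher in A, at a log2 ratio of 0.25. Klf3 and Klf7 were then not called, and Klf16 was called higher in B, at -0.66.

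**Figure D2:**
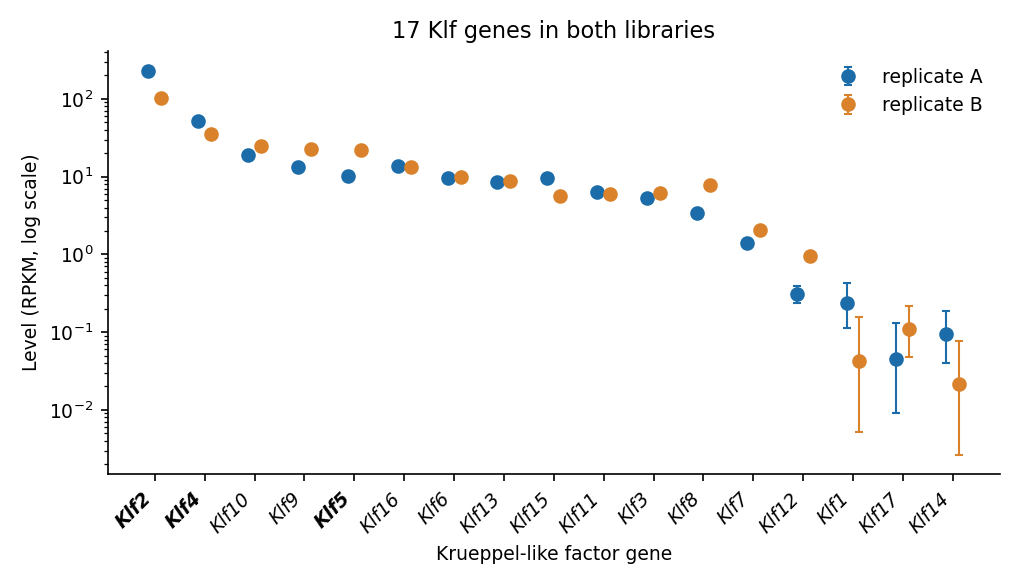
Level of 17 Krueppel-like factor genes (vertical axis, RPKM on a log scale) in replicate A (blue) and replicate B (orange), in order of mean level, bars giving 95% Poisson intervals, with the naive-state factors in bold. Klf2 and Klf4 lead the family in both libraries, and Klf5 stood at 10.2 RPKM in A and 21.96 in B.

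Esrrb, Nr0b1 and Nr5a2 belong to the nuclear receptor family. Esrrb (ENSMUSG00000021255, chromosome 12, 86361117 to 86521628, plus strand) is an orphan receptor that activates self-renewal genes downstream of Wnt. It had the most counts of the 9, 17769 in A and 19479 in B, and levels of 105 RPKM in A (104 to 107) and 106 RPKM in B (105 to 108), or 106 ± 0.559. Its log2 ratio was -0.10 after TMM scaling, 1.07-fold higher in B (exact binomial test, adjusted p = 1.1e-11). With library totals and no TMM scaling the log2 ratio was -0.01 and the adjusted p was 0.515, so the call rests on the scaling. Esrrb had the smallest difference of the 9 on both of these scales.

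Nr0b1 (ENSMUSG00000025056, chromosome X, 86191764 to 86195947, plus strand) encodes Dax1, a receptor-like protein without the usual DNA-binding domain that binds Esrrb, Nr5a2 and Oct4. It had 2364 counts in A and 4069 in B, and levels of 46.9 RPKM (45.04 to 48.8) and 74.2 RPKM (71.9 to 76.5), or 60.6 ± 19.3. Nr0b1 was 1.68-fold higher in B (log2 ratio -0.75, exact binomial test, adjusted p = 5.1e-93). Nr5a2 (ENSMUSG00000026398, chromosome 1, 136842571 to 136960448, minus strand), also called Lrh-1, activates the Oct4 gene and can replace Oct4 in reprogramming. It had 1340 counts in A and 2438 in B, and levels of 8.15 RPKM (7.72 to 8.60) and 13.6 RPKM (13.1 to 14.2), or 10.9 ± 3.87. Nr5a2 was 1.78-fold higher in B (log2 ratio -0.83, exact binomial test, adjusted p = 1.2e-66). The counting intervals of A and B did not overlap for Nr0b1 and Nr5a2, and overlapped for Esrrb.

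Relatives of these receptors were measured as well. Esrra, another member of the Esrr family, stood at 4.22 ± 2.19 RPKM and Esrrg had 1 count in A and 2 in B. Nr0b2, the other receptor-like gene without a DNA-binding domain, had 17 counts in A and 4 in B. Nr6a1, the germ cell nuclear factor that represses Oct4 during differentiation, stood at 10.4 ± 2.73 RPKM, near Nr5a2.

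Tbx3 (ENSMUSG00000018604, chromosome 5, 119670669 to 119684724, plus strand) is a T-box factor that acts in the PI3K and MAPK branch of LIF signalling and whose level is known to fluctuate among ES cells. It had 5679 counts in A and 4308 in B, and levels of 30.8 RPKM (30.0 to 31.6) and 21.4 RPKM (20.8 to 22.1), or 26.1 ± 6.59. Tbx3 was 1.34-fold higher in A (log2 ratio 0.43, exact binomial test, adjusted p = 2.8e-48). Its paralog Tbx2 had 14 counts in A and 3 in B. The antisense gene Tbx3os1 shares 115 exon bases with Tbx3 and held 6 counts in A and 7 in B. Whether the counting used strand is not given in the sources used here, and these few counts are small beside those of Tbx3.

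Tfcp2l1 (ENSMUSG00000026380, chromosome 1, 118627945 to 118685168, plus strand) is a factor of the CP2 family that lies downstream of STAT3. It had 11608 counts in A and 15496 in B, and levels of 44.1 RPKM (43.3 to 44.9) and 54.1 RPKM (53.3 to 55.0), or 49.1 ± 7.08. As measured, Tfcp2l1 was 1.31-fold higher in B (log2 ratio -0.39, exact binomial test, adjusted p = 3.6e-106). Corrected for GC content and length the log2 ratio was 0.10, so the direction turned. Of its family, Ubp1 stood at 21.2 ± 5.48 RPKM and Tfcp2 at 2.91 ± 1.17 RPKM.

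Prdm14 (ENSMUSG00000042414, chromosome 1, 13113457 to 13127163, minus strand) represses FGF receptor signalling and DNA methyltransferase genes through Polycomb and the corepressor Cbfa2t2. It was the lowest of the 9, with 764 counts in A and 563 in B, and levels of 10.7 RPKM (9.95 to 11.5) and 7.24 RPKM (6.65 to 7.86), or 8.97 ± 2.44. It ranked 4940 of 16971 protein-coding genes. Prdm14 was 1.37-fold higher in A (log2 ratio 0.46, exact binomial test, adjusted p = 9.1e-09). Prdm4 was the highest of the 6 other Prdm genes listed, at 15.4 ± 2.94 RPKM. Cbfa2t2 stood at 10.5 ± 0.193 RPKM and is named here with its values known.

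In order of mean RPKM the factors ran Klf2, Esrrb, Nr0b1, Tfcp2l1, Klf4, Tbx3, Klf5, Nr5a2 and Prdm14. Of the 8 pairs of neighbours in this order, only Esrrb over Nr0b1 and Klf4 over Tbx3 kept apart in their ranges over both libraries. The other 6 neighbours overlapped. Of these, Nr0b1 lay above Tfcp2l1 and Klf5 above Nr5a2 in both A and B, and the rest changed places. With 2 libraries none of these orders can be tested. Among all 36 pairs of factors, 6 changed places between A and B. Klf2 stood 2.19-fold above Esrrb in A and at 0.957 of it in B. Klf4 lay above Nr0b1 and Tfcp2l1 in A and below both in B, and Klf5 lay below Prdm14 in A and 3.03-fold above it in B. With the longest transcript in place of all exon bases, the order of the means was the same for all 9, and 1 of the 8 pairs of neighbours kept apart. On that length Klf5 and Prdm14 did not change places. Klf5 lay above Prdm14 at 15.8 against 10.7 RPKM in A and 34.1 against 7.24 RPKM in B.

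The differences of the factors were set beside those of other genes. The median absolute log2 ratio was 0.48 for the 9 factors, 0.44 for all tested genes and 0.37 for the 8907 genes with at least 10 CPM in each library. Of the 9, 4 were called and differed at least 1.5-fold, where 37.9% of all tested genes did, and 2 differed at least 2-fold, where 13.9% did. By direction, 4 were higher in A and 5 were higher in B, and 38.4% of all tested genes were called in each direction. Each factor was then placed among the tested genes whose mean CPM lay within a factor of 1.5 of its own. The absolute ratio of Esrrb was larger than that of 17.4% of 258 such genes. Those of Tfcp2l1, Prdm14, Tbx3 and Klf4 exceeded 51.1% to 62.2% of their like, that of Nr0b1 82.7% and that of Nr5a2 87.7%. Klf2 exceeded 95.3% of 687 genes and Klf5 96.3% of 2307 genes. These shares are descriptions of 2 libraries.

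**Figure D3:**
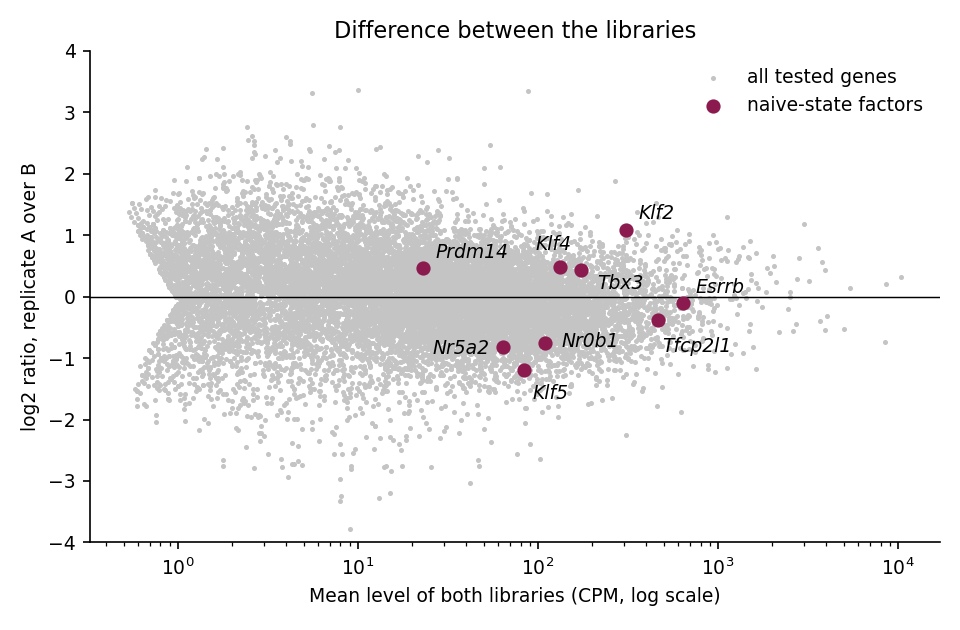
Log2 ratio of replicate A over B (vertical axis) against the mean level of both libraries (horizontal axis, CPM on a log scale) for all 14583 tested genes (grey) and the 9 naive-state factors (dark red). Klf2 lies at 1.09 and Klf5 at -1.19, and Esrrb lies at -0.10.

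The ratio between the libraries went with the GC content of transcripts across all genes. Tested protein-coding genes were ranked by GC content and cut into 10 bins of equal size. The bin of lowest GC content had a median log2 ratio of -0.52 and the bin of highest GC content one of 0.58. The factors spanned 43.2% GC in Nr5a2 to 61.6% in Klf2. Of the 4 factors higher in A, Klf2, Klf4, Tbx3 and Prdm14 had 61.6%, 54.6%, 54.2% and 50.5% GC. Of the 5 higher in B, Nr0b1 and Esrrb had 55.2% and 54.9%, and Klf5, Tfcp2l1 and Nr5a2 had 47.9%, 47.0% and 43.2%. Protein-coding genes within 1 percentage point of the GC content and a factor of 1.25 of the length of Klf2 had a median log2 ratio of 0.76 (77 genes), and those like Tfcp2l1 one of -0.63 (127 genes). Genes like Nr0b1 had a median of 0.42 (280 genes), opposite in sign to the ratio of Nr0b1 itself.

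With the trend in GC content and length removed, all 9 factors still differed beyond counting error, as did 70.7% of 14426 genes, and 8 kept their direction, the exception being Tfcp2l1. Then 5 were higher in A, where 30.9% of those genes were, and 4 were higher in B, where 39.8% were. The corrected log2 ratios of those higher in A were 0.37 for Klf2, 0.33 for Tbx3, 0.31 for Prdm14 and 0.18 for Klf4. The corrected values were -1.20 for Nr0b1, -1.12 for Klf5, -0.40 for Nr5a2 and -0.30 for Esrrb. Klf5 and Nr0b1 thus had the widest corrected differences, both higher in B, and the ratio of Klf2 was smaller than as measured. The median absolute log2 ratio of the 9 was 0.33 after the correction.

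**Figure D4:**
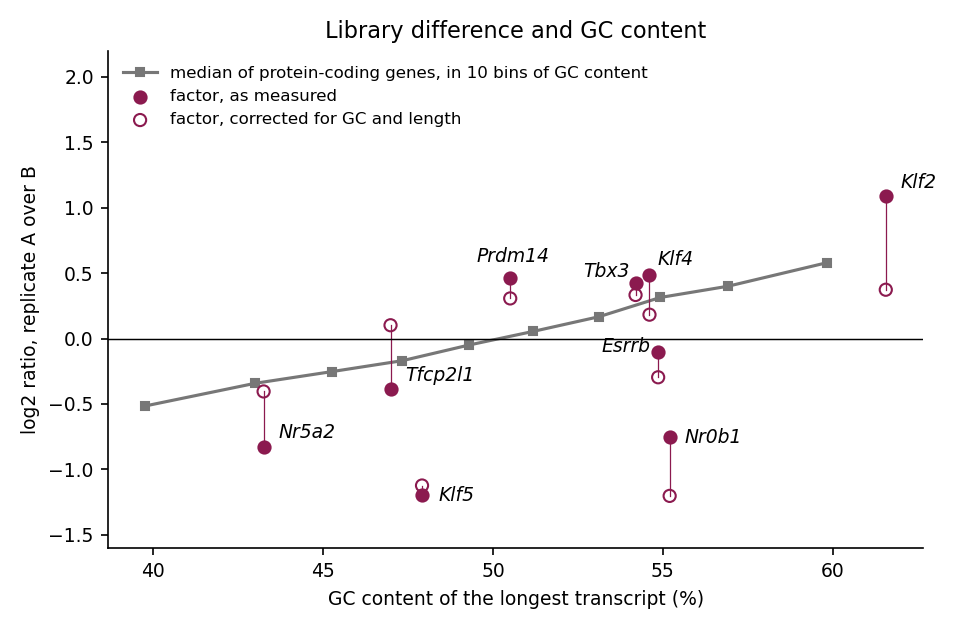
Log2 ratio of replicate A over B (vertical axis) against GC content of the longest transcript (horizontal axis, %) for the 9 factors as measured (filled) and corrected for GC content and length (open), with the median of tested protein-coding genes in each of 10 bins of GC content (grey squares). The median over genes climbs with GC content, Klf2 lies at 1.09 as measured and at 0.37 corrected, and Nr0b1 and Klf5 lie at -1.20 and -1.12 after the correction.

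The core factors that work with these genes were all expressed. All 8 genes of that list passed 1 CPM in A and B, and their median was 49.2 RPKM. Pou5f1, the gene of Oct4, stood at 744 ± 82.8 RPKM and Nanog at 229 ± 37.3 RPKM, both above all 9 naive factors by their mean. Zfp143 was the lowest by CPM, at 10.4 ± 1.36 RPKM. Of the 8 core genes, 3 were higher in A and 4 were higher in B, beside 38.4% of all tested genes in each direction. This split and those of the other lists are as measured, without the GC and length correction, unless stated. With it, Pou5f1 turned from a log2 ratio of 0.13 to -0.48 and Sall4 was called higher in B, at -0.08. The other core genes kept their direction.

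Other genes used as marks of the naive state had a median of 79.3 RPKM, and all 14 reached 1 CPM in both libraries. Dppa5a, an RNA-binding protein of ES cells, stood at 4862 ± 2838 RPKM and Spp1 (osteopontin) at 472 ± 58.9 RPKM. Dppa3 (Stella), a gene that is on in part of naive cells, was the lowest by CPM, with 15.1 RPKM in A and 4.66 RPKM in B. Of the 14 genes, 7 were higher in A and 7 were higher in B, and all tested genes were called in 38.4% of cases in each direction.

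Genes upstream of the factors were expressed in both libraries in 18 of 18 cases, with a median of 18.7 RPKM. Ctnnb1, the gene of beta-catenin, stood at 152 ± 33.3 RPKM and Mapk3 (Erk1) at 66.5 ± 19.5 RPKM. Lef1, a Wnt effector, was lowest by CPM, at 0.712 ± 0.447 RPKM. Of these 18 genes, 7 were higher in A and 11 were higher in B as measured, against 38.4% of all tested genes each way. With the GC and length correction none of those 7 stayed higher in A. Socs3 (log2 ratio -0.36), Gsk3a, Tcf7l1, Map2k1 and Id3 were then higher in B, and Tcf7 and Mapk3 were not called. Gsk3b, higher in B as measured, was not called either. Cofactors, chromatin proteins and other partners of the factors had a median of 25.6 RPKM, and 8 of 10 reached 1 CPM in both libraries. Kdm1a, a histone demethylase, stood at 67.4 ± 1.98 RPKM. As measured it did not differ between libraries beyond counting error (log2 ratio -0.03, exact binomial test, adjusted p = 0.129). With the GC and length correction Kdm1a was called higher in B, at a log2 ratio of -0.18. Suz12, a Polycomb subunit, stood at 59.6 ± 15.8 RPKM. Of 9 partner genes tested, 1 was higher in A and 7 were higher in B, again beside 38.4% of all tested genes each way.

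**Figure D5:**
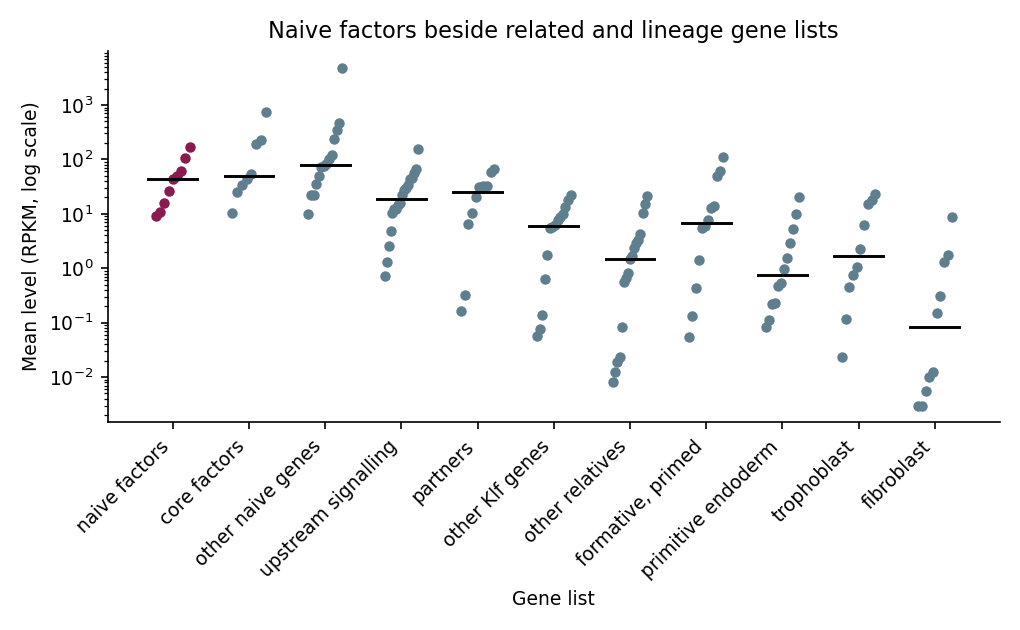
Mean level over both libraries (vertical axis, RPKM on a log scale) of every gene in 11 lists, each point 1 gene and each line the list median, with the naive-state factors in dark red. The naive factors span 8.97 to 166 RPKM with a median of 43.7, and the 2 fibroblast genes without a count are drawn at the bottom of the axis.

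Genes of the formative and primed states, which follow the naive state, had a median of 6.86 RPKM, and 9 of 12 reached 1 CPM in both libraries. Etv5, a target of ERK signalling that naive cells also express, stood at 110 ± 9.28 RPKM and Dnmt3b, a DNA methyltransferase, at 60.6 ± 24.2 RPKM. Fgf5, a defining mark of the primed state, had 4 counts in A and 4 in B. The summed level of this list was 230 RPKM in A and 304 RPKM in B, against 540 RPKM in A and 436 RPKM in B for the 9 naive factors. Without Klf2 the other 8 factors summed to 309 RPKM in A and 334 RPKM in B. Of 10 genes tested in the list, 1 was higher in A and 5 were higher in B, where 76.8% of all tested genes were called in either direction. Dnmt3b, which Prdm14 is known to repress, had a log2 ratio of -0.93, where that of Prdm14 was 0.46. A link between these differences was not tested.

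Markers of other cell types that an ES culture can hold were counted in the same way, beside the 38.4% of all tested genes that were higher in A and the 38.4% that were higher in B. Of 12 primitive endoderm genes, 8 reached 1 CPM in both libraries and none was at 0 counts in both. Of 10 tested, 1 was higher in A and 9 were higher in B, and the summed level was 27.4 RPKM in A and 57.0 RPKM in B. The laminin genes Lamb1 and Lama1 led with 20.2 ± 7.38 and 9.78 ± 6.92 RPKM, and Foxa2 had 2 counts in A and 14 in B. The list of 10 trophoblast genes summed to 91.6 RPKM in A and 43.0 RPKM in B, where 7 genes passed 1 CPM in A and B and none lacked counts in both. Of 8 trophoblast genes tested, 5 were higher in A and 0 were higher in B as measured. With the GC and length correction Tfap2c, Esx1 and Krt18 stayed higher in A. Krt8 and Ascl2 were then not called, and Cdx2 was higher in B, at a log2 ratio of -0.97. The keratin genes Krt18 and Krt8 stood at 23.6 ± 13.5 and 17.7 ± 4.68 RPKM, and Elf5 had 2 counts in A, against 6 in B. Of the 6 genes of the 2-cell-like state none reached 1 CPM in both libraries. They summed to 10.01 RPKM in A and 0.958 RPKM in B, with 4 of 4 tested genes higher in A, led by Zscan4c and Zscan4d, and with Tcstv1 at 0 counts in both. The part of these markers in the differences of the naive factors was not tested. In bulk RNA, fewer cells of a type and less RNA per cell cannot be told apart.

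Fibroblast genes, which feeder cells would bring, summed to 14.9 RPKM in A and 10.1 RPKM in B, and 4 of 10 reached 1 CPM in both libraries. Of 4 tested, 3 were higher in A and 0 were higher in B as measured. With the GC and length correction Col1a1 and Pdgfrb stayed higher in A, and Thy1 was not called. Twist1 was then higher in B, at a log2 ratio of -0.82. Thy1 led with 8.90 ± 2.25 RPKM, followed by Twist1 at 1.78 ± 0.0878 RPKM, and Lum had 0 counts in both libraries. With the limit for a count of 0 set at 3 counts, below the end of its two-sided interval, a gene at 0 may reach 0.108 CPM in A and 0.0989 CPM in B. Blood genes summed to 17.02 RPKM in A and 21.6 RPKM in B, and 3 of 8 passed 1 CPM in A and B. Of 4 tested, 3 were higher in A and 1, Cd68, was higher in B. Cd68, a lysosomal protein of macrophages, made up most of the sum at 15.3 ± 5.04 RPKM, Cd79a stood at 1.91 ± 1.13 RPKM, and Hbb-bt had 0 counts in both. The part of these genes in the differences of the naive factors was not tested either.

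The loci of the factors differed in how their neighbours were expressed. The nearest protein-coding genes to Klf2, Gm10282 on the left and Eps15l1 on the right, had levels of 17.1 and 9.93 RPKM in A and 10.6 and 9.84 RPKM in B. Gm10282 was higher in A, as Klf2 was, and Eps15l1 did not pass the test. Around Klf4, Rad23b stood at 63.2 RPKM in A and 100.2 RPKM in B and Actl7b had 20 and 6 counts. Pibf1, to the left of Klf5, and Klf12, to its right, were both higher in B, with log2 ratios of -1.003 and -1.507.

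Esrrb lay between Gpatch2l, at 1.69 RPKM in A and 1.74 RPKM in B, and Vash1, at 0.759 RPKM in A and 2.005 RPKM in B. Tbx3 lay between Med13l, at 4.17 RPKM in A and 7.16 RPKM in B, and Tbx5, with 6 counts in A and 0 in B. Clasp1 and Gli2 beside Tfcp2l1 were higher in B, as Tfcp2l1 was as measured. The genes on either side of Nr0b1, Samt3 and Mageb4, had 0 and 2 counts in A and 0 and 14 in B, and those of Nr5a2 were Zfp281, at 19.1 RPKM in A and 30.5 RPKM in B, and the leukocyte gene Ptprc, with 1 and 5 counts. Prdm14 lay between Slco5a1, with 67 counts in A and 107 in B, and Ncoa2, with 820 and 1350 counts. Both of these neighbours were higher in B, whereas Prdm14 was higher in A.

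Near-identical transcripts of other genes, with which reads could be shared, were searched for. Of the 9 longest transcripts, 7 had no match of at least 100 bases and 95% identity to a transcript of another gene. The other matches were those of Tbx3 to Tbx3os1 and of Tfcp2l1 to the small nuclear RNA gene Gm23497, which lies in an exon of Tfcp2l1 and had 0 counts in both libraries. Inside the span of Tfcp2l1 lie also Gm28882, a processed pseudogene with 1 count in A and 6 in B, and Gm22094, with 0 counts in both, and neither shares exon bases with it. With 2 libraries each gene has a single difference, so no profile of likeness to other genes could be formed.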

How the data were processed

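Polyadenylated RNA of 2 samples of Dgcr8 knockout mouse ES cells was sequenced. Trizol extraction and a TruSeq RNA kit giving reverse-stranded libraries were used, per the labels' protocols. The authors deposited raw counts, whole numbers for each Ensembl gene, in 1 file a library. Software listed in the submitters' processing notes is featureCounts 1.4.5-p1 and STAR 2.4.2a, with the build mm10 and no statement of roles. Not given in the sources used here are the annotation release, the strand setting and how multi-mapping reads were counted.

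Names, positions, exon lengths and GC content came from GENCODE M21 (GRCm38, the same assembly as mm10), which matched 42548 of 43629 identifiers. The unmatched held 0.183% of all counts of A and 0.179% of those of B. Totals were 27872396 and 30327146 counts, TMM factors 1.03 and 0.968 (edgeR 4.0.16, R 4.3.3). Each gene that passed 1 CPM in A or B was compared between A and B by an exact binomial test, two-sided (scipy 1.17.1), on its counts given their sum and TMM-scaled library sizes, with Benjamini-Hochberg adjustment over all 14583 genes and a threshold of 0.05. The pseudocount was 0.5. The test compares these libraries beyond counting error, not conditions. Without molecular identifiers, reads may stem from the same molecule, and intervals cover counting error only. The GC and length correction subtracted a loess fit (span 0.5) over tested protein-coding genes. The binomial test was tested on simulated counts. Similar transcripts were searched with blastn 2.17.0.

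As alternatives served library totals, DESeq2 1.42.0 size factors, pseudocounts of 0.1 and 1, other filters, the GC and length correction, Fisher's exact test, the longest transcript as length, and each library alone. The 9 members and the 12 other gene lists were chosen with earlier results of these data known. Genes named from a list were the 2 of highest mean RPKM and the 1 of lowest mean CPM, with the closest relatives, overlapping genes and nearest neighbours of the factors. Exceptions are stated.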

Additional observations from a re-analysis of the deposited data

How the results depend on the processing

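The 9 factors were each tested under 8 alternatives, which gave 72 log2 ratios. Of these, 69 kept their direction and their side of the threshold. Esrrb was no longer called with library totals (log2 ratio -0.01, adjusted p = 0.515) or with Fisher's exact test on the same totals (-0.01, adjusted p = 0.514), and Tfcp2l1 turned to 0.10 with the GC and length correction. The cause was not tested. The number of called factors was 8 or 9 under the alternatives. The number of called genes ran from 8443 of 10004 tested (84.4%, at 10 CPM or more in either library) to 11653 of 23698 (49.2%, without a filter on low counts). With library totals the median log2 ratio of all tested genes was 0.10, against 0.01 with TMM scaling. The split of calls moved to 6431 higher in A and 4851 higher in B with library totals, and to 4458 and 5736 with the GC and length correction. The median level of the 9 factors was 35.0 RPKM without replicate A and 44.1 RPKM without replicate B. With the longest transcript as length 1 pair of neighbours in the order kept apart in place of 2, since Tbx3 moved to 34.7 RPKM and its range then overlapped that of Klf4. Esrrb and Klf5 moved to 149 and 24.9 RPKM. No paired analysis was possible because the samples form a single group.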
